A study of Mus musculus with 53 samples.

Results

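Forkhead genes encode transcription factors that share a winged-helix DNA-binding domain, and 9 of them with known roles in embryonic development were followed across 9 groups of mouse synovial sarcoma samples. The genes were *Foxa1*, *Foxa2*, *Foxa3*, *Foxc1*, *Foxc2*, *Foxd1*, *Foxf1*, *Foxf2* and *Foxq1*, and their probe sets were taken from the array's gene annotation. Of 45037 probe sets on the array, 11 carried 1 of these symbols and no other. They covered 8 of the 9 genes, since no probe set here was named *Foxd1*. *Foxc1*, *Foxf1* and *Foxq1* had 2 probe sets each, the other 5 genes had 1, and where a gene had 2 the brighter one over all arrays leads the description.

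The study modelled synovial sarcoma, a soft tissue tumor driven by a fusion of *SS18* with an *SSX* gene, by putting human *SS18-SSX1* into mouse embryonic mesenchymal cells (eMCs) with a retrovirus and grafting the cells under the skin of nude mice. The 53 arrays comprised 12 tumors formed with *SS18-SSX1* (SS), 13 tumors formed with a vector that carried *SS18-SSX1* and *miR-214* (SS214), 4 samples of eMCs taken 48 h after transduction with *SS18-SSX1*, 4 of eMCs 48 h after an empty vector, and 4 of a mix of normal tissues. The remaining 16 arrays came from SS40 and SS64, lines of mouse synovial sarcoma cells, each with 4 arrays after transfection of *miR-214* and 4 labelled NC. The second line is SS64 in the labels and SS60 in the study's text. The eMCs were primary cells from the limbs of BALB/c embryos shortly before birth. The empty vector expressed GFP, which the *miR-214* vector lacked. Each line is 1 culture, retroviral integrations differ between tumors, and a tumor sample can hold tissue of the mouse that bore it. The labels describe the mix as mouse tissue, whereas the methods name a human mix of 10 organs. Where the labels do not say that replicates were separate cultures, the p-values speak only to differences among the samples at hand, which may be technical.

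FoxA proteins are pioneer factors that open chromatin in organs of endodermal origin such as liver, lung and gut. *Foxc1* and *Foxc2* act in somites, neural crest, heart and vessels. *Foxf1* and *Foxf2* act in the mesenchyme around gut and lung, where Hedgehog signals from the epithelium induce them, and *Foxq1* is known for roles in hair and stomach and, in carcinoma, for epithelial-mesenchymal transition. *Foxq1*, *Foxf2* and *Foxc1* lie next to each other on chromosome 13 with 0 protein-coding genes between neighbours, and *Foxf1* and *Foxc2* lie on chromosome 8 with 1 gene, *Mthfsd*, between them.

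The bases just upstream of the annotated start are printed for *Foxa2*, at the outermost of its 3 annotated starts, and *Foxa3*, which fell in eMCs with *SS18-SSX1*, and for *Foxc1* and *Foxf2*, which were higher in tumors than in the tissue mix. Each is 250 bases, 5′ to 3′ on the strand of the gene, from RefSeq on build GRCm38.p6. *Foxa2* is chr2:148046970-148047219 on the minus strand, *Foxa3* chr7:19023540-19023789 on the minus strand, *Foxc1* chr13:31806396-31806645 on the plus strand and *Foxf2* chr13:31625566-31625815 on the plus strand. Capitals mark matches, on either strand, to TATAAA (the TATA box), CCAAT (a site of NF-Y), GGGCGG (the GC box of SP factors), TGTTTAC (a forkhead motif) and GACCACCCA (a GLI motif).
Foxa2: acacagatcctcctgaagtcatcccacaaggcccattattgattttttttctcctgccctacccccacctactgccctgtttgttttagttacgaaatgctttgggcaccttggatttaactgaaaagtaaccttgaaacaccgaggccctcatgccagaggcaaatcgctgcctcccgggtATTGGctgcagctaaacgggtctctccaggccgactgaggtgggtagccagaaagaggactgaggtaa
Foxa3: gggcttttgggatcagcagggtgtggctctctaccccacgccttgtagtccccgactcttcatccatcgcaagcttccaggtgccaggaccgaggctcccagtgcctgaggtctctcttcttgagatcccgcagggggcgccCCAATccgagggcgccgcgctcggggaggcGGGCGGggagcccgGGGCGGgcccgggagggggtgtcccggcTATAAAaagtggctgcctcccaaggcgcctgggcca
Foxc1: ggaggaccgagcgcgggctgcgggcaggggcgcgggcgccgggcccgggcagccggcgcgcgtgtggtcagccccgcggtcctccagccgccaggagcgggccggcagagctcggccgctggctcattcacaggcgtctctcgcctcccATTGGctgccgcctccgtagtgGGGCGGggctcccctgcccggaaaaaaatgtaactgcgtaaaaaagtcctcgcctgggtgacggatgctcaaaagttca
Foxf2: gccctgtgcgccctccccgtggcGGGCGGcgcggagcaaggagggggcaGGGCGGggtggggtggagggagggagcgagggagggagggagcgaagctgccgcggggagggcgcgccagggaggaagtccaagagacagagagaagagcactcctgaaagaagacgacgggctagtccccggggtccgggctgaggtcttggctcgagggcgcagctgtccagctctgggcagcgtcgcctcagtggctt
Of these sequences only that of *Foxa3* held TATAAA, at 36 to 31 bases before the start, a motif present in 12.37% of 32851 mouse promoters over the same 250 bases. CCAAT, present in 33.85% of promoters, was found in *Foxa2*, *Foxa3* and *Foxc1*, and GGGCGG, present in 32.74%, in *Foxa3*, *Foxc1* and *Foxf2*. TGTTTAC (3.17% of promoters) and GACCACCCA (0.23%) were found in none of the 4. The windows at the other 2 starts of *Foxa2* differed from the one printed, with 67.2% GC, 20 CpG and GGGCGG at one, and 54.4% GC, 13 CpG, TATAAA and GGGCGG at the other. GC content was 50.8% for *Foxa2*, 68.8% for *Foxa3*, 70.8% for *Foxc1* and 71.6% for *Foxf2*, beside a median of 52.4% over all promoters. CpG dinucleotides numbered 6, 18, 29 and 21 in the same order of genes, beside a median of 6.

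The microRNA that was varied in the study is encoded on mouse chromosome 1, and both its mature strands are printed because the transfected strand is not given in the sources used here. Capitals mark the seed, bases 2 to 8.
mmu-miR-214-3p: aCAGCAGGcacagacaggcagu
mmu-miR-214-5p: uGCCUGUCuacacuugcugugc
The seeds of the strands differ.

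Expression is given as the log2 of the deposited intensity, in which 1 unit is a doubling. Values under an intensity of 11.7 (3.55 on the log2 scale) were set to that floor, and probe sets were compared only with themselves, since brightness differs between probe sets for reasons other than expression. Array medians lay between 22.6 and 26.9. The log2 ratio of 3′ to 5′ *Gapdh* probe sets, a sign of RNA quality, was 0.326 to 1.43 in SS tumors, -0.045 to 0.483 in SS214 tumors and between -0.331 and 0.185 on all other arrays, so that it moved with the SS tumors. Summed intensity of 6 skeletal muscle markers was 9884 to 39120 in SS tumors, 6870 to 51100 in SS214 tumors, 158 to 227 in the SS40 and SS64 lines, 1850 to 1937 in eMCs with *SS18-SSX1*, 452 to 483 in eMCs with the empty vector and 36760 to 37890 in the tissue mix. In bulk RNA such as this, fewer cells of a type and less RNA per cell cannot be told apart.

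**Figure D1:**
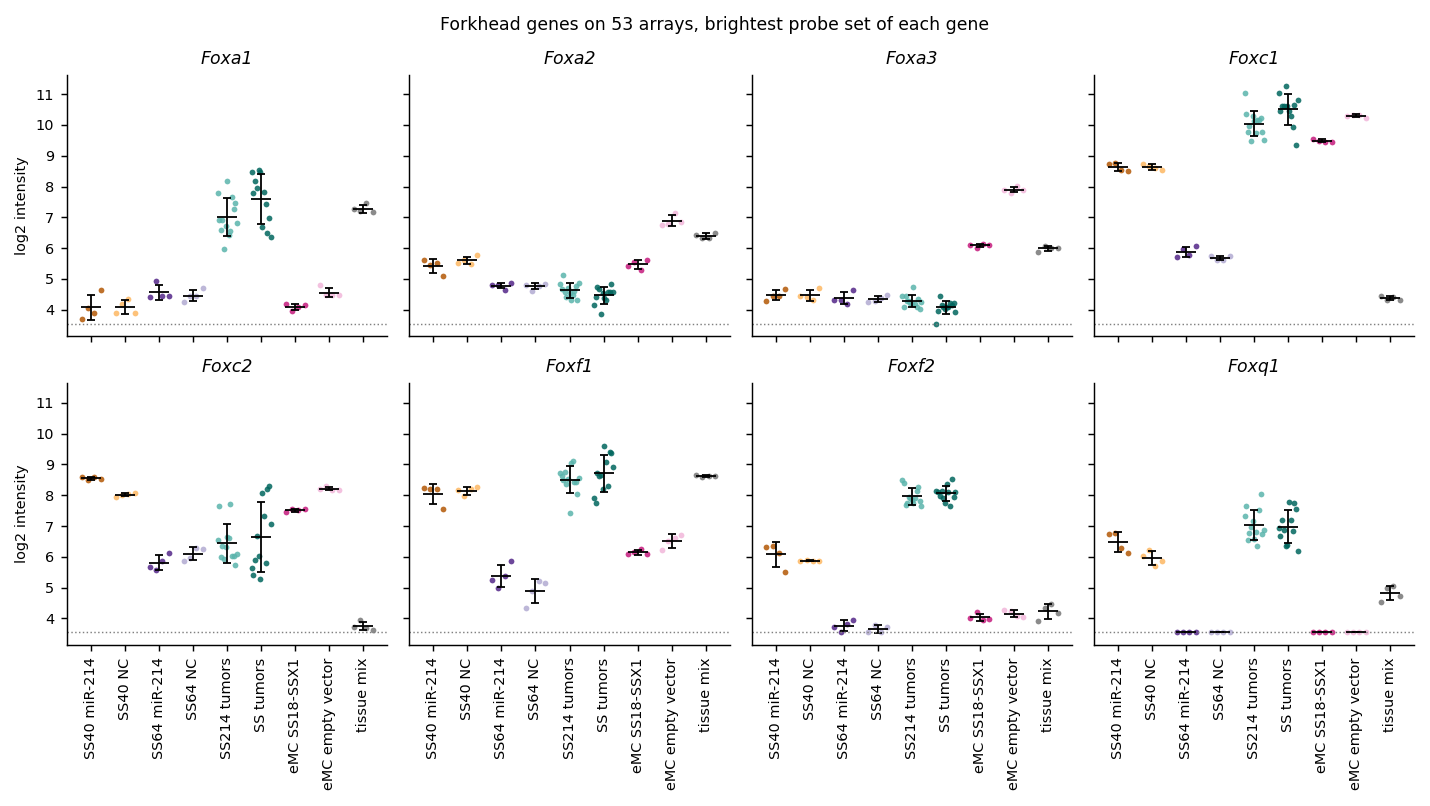
Log2 intensity (vertical axis) of the brighter or only probe set of 8 forkhead genes on 53 arrays in 9 groups (horizontal axis). Each point is an array, bars give the mean and SD of a group, and the dotted line is the floor at 3.55. *Foxf2* and *Foxc1* were high in both tumor groups, *Foxa3* was highest in eMCs with the empty vector, and *Foxq1* was at the floor in 4 groups.

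A probe set was called higher or lower where limma gave an adjusted p under 0.05 over all probe sets tested and the fold change was over 2. Among member probe sets, 2 of 10 tested were called between eMCs with *SS18-SSX1* and eMCs with the empty vector, both lower, where 2.59% of all probe sets were called, 1.84% higher and 0.744% lower. By adjusted p alone 7 of 10 passed, beside 41.3% of all probe sets. Between SS tumors and the tissue mix, 5 member probe sets were higher and 2 lower of 11 tested, where 9.07% of all probe sets were higher and 9.54% lower (18.6% in either direction). SS tumors differed from eMCs with the empty vector in 9 of 11 member probe sets, 6 higher and 3 lower, beside 19.2% of all probe sets (11.6% higher and 7.57% lower). They differed from eMCs with *SS18-SSX1* in 8 of 11, 7 higher and 1 lower, beside 19.0% (10.6% higher and 8.49% lower). These 3 comparisons share the SS tumors.

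Cultured lines also differed in most members. SS40 NC cells were higher than SS64 NC cells in 6 of 11 member probe sets and lower in 0, where 9.71% of all probe sets were called, 4.48% higher and 5.23% lower. By adjusted p alone 10 of 11 passed, beside 39.7%. SS40 NC cells differed from SS tumors in 7 of 11, with 2 higher and 5 lower, beside 23.0% of all probe sets (10.1% higher and 12.9% lower). SS64 NC cells differed from SS tumors in 7 of 11, with 0 higher and 7 lower, beside 21.6% (9.59% higher and 12.0% lower). No member probe set was called in the 4 comparisons that involve *miR-214*, where calls were also rare elsewhere, at 2.50% between SS214 and SS tumors, 0.160% in SS40, 0.193% in SS64 and 0.156% for the difference between the lines.

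**Figure D2:**
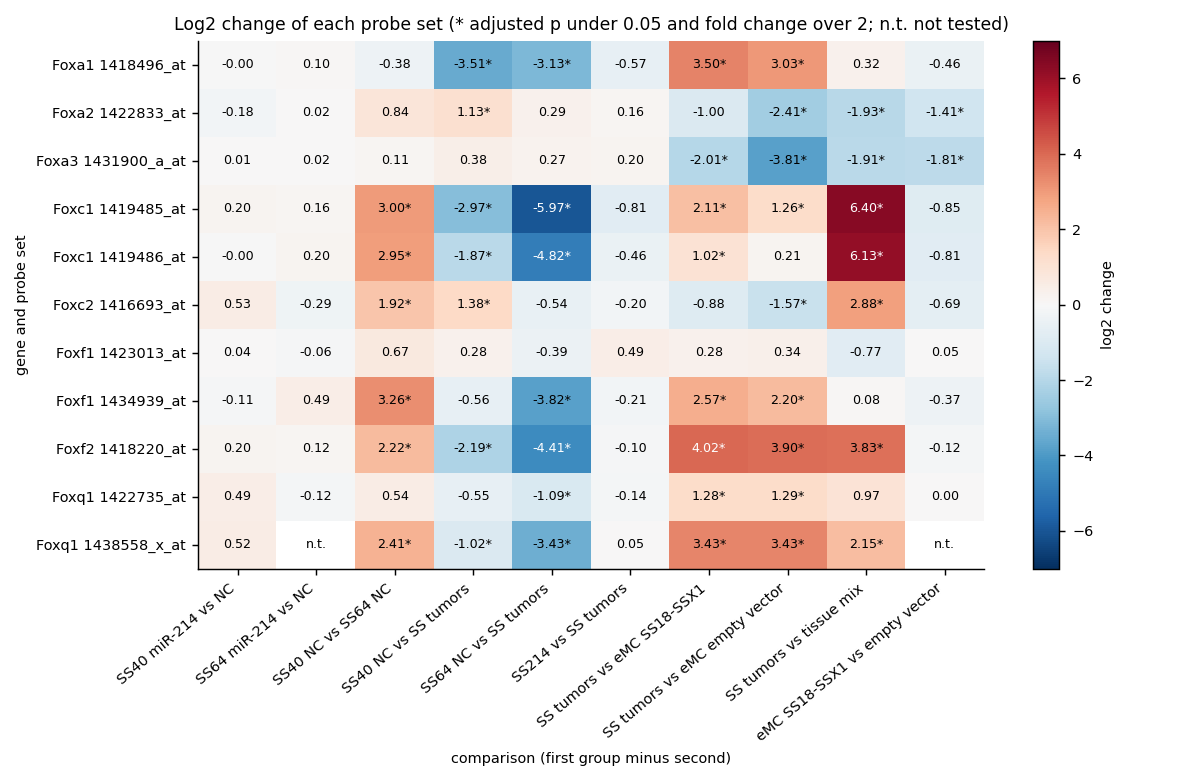
Log2 change of each of 11 forkhead probe sets (rows) in 10 comparisons (columns), the first group named minus the second; red is higher and blue lower in the first group. Asterisks mark an adjusted p under 0.05 with a fold change over 2, and n.t. marks a probe set at the floor in both groups. *Foxc1* had the largest change, 6.40 and 6.13 between SS tumors and the tissue mix.

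*Foxa3* and *Foxa2* fell in eMCs within 48 h of *SS18-SSX1*. *Foxa3*, a regulator of liver and gut genes, measured 6.12, 6.01, 6.13 and 6.10 in eMCs with *SS18-SSX1*, against 7.89, 7.79, 8.01 and 7.89 in eMCs with the empty vector. All 4 arrays with the fusion gene lay below all 4 with the empty vector, and the difference of -1.81 (SE 0.057, adjusted p = 1.3e-12) was a 3.50-fold decrease. *Foxa2*, which is needed for notochord and endoderm, measured 5.43, 5.56, 5.29 and 5.60 with *SS18-SSX1*, against 6.76, 6.78, 7.14 and 6.85 with the empty vector. These groups did not overlap either, and the decrease of 2.66-fold (log2 change -1.41, SE 0.093, adjusted p = 6.4e-09) exceeded the spread between arrays.

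None of the 5 liver, 7 lung epithelium and 2 intestine markers tested was called between the eMC groups, and 2 of 7 liver and 3 of 6 intestine markers were at the floor on all arrays of each eMC group. Markers of other cell types were called higher with *SS18-SSX1*, 7 of 8 for endothelium, 3 of 6 for skeletal muscle and 4 of 5 for smooth muscle. Of all genes, 2.73% were called higher and 0.920% lower in that comparison. Summed intensities were 1038 to 1082 with *SS18-SSX1* and 207 to 222 with the empty vector for endothelium, and 5037 to 5296 with *SS18-SSX1* and 2058 to 2087 with the empty vector for smooth muscle. Macrophage markers summed to 3384 to 3553 with *SS18-SSX1* and 2226 to 2339 with the empty vector, although 0 of 6 were called. The part of these cell types in the changes of *Foxa2* and *Foxa3* was not tested. Markers of mesenchyme summed to 7889 to 8038 with *SS18-SSX1* and 7608 to 8031 with the empty vector, and 0 of 8 were called.

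In SS tumors both genes were below eMCs with the empty vector and the tissue mix. *Foxa3* lay between 3.55 and 4.43 in SS tumors (median 4.09), and each of the 12 tumors was below each eMC array and each tissue mix array. The difference was -2.01 (SE 0.11, adjusted p = 4.2e-11) against eMCs with *SS18-SSX1*, -3.81 (SE 0.12, adjusted p = 1.1e-14) against those with the empty vector and -1.91 (SE 0.11, adjusted p = 5.1e-11) against the tissue mix, where *Foxa3* measured 5.87, 6.07, 6.01 and 6.01. *Foxa2* lay between 3.85 and 4.85 in SS tumors (median 4.56). It was 5.32-fold lower than in eMCs with the empty vector (log2 change -2.41, SE 0.15, adjusted p = 1.5e-10) and 3.80-fold lower than in the tissue mix (log2 change -1.93, SE 0.14, adjusted p = 1.4e-09), at 6.44, 6.33, 6.32 and 6.51 there. Against eMCs with *SS18-SSX1* the *Foxa2* difference of -0.998 (SE 0.14, adjusted p = 8.1e-06) did not reach the limit of 2-fold by a narrow margin. The mix held summed liver markers of 30160 to 31890 and lung markers of 21090 to 21770, against 138 to 371 and 82.7 to 178 in SS tumors, and the part of these tissues in the *Foxa2* and *Foxa3* values of the mix was not tested.

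*Foxa1* was higher in SS tumors than in either eMC group. It ranged from 6.35 to 8.55 in SS tumors (median 7.82), against 4.19, 3.96, 4.10 and 4.15 in eMCs with *SS18-SSX1* and 4.80, 4.49, 4.49 and 4.47 in eMCs with the empty vector. Every tumor lay above every eMC array, by 3.50 against eMCs with *SS18-SSX1* (SE 0.37, 11.3-fold, adjusted p = 3.0e-07) and by 3.03 against the empty vector (SE 0.37, 8.20-fold, adjusted p = 1.6e-06). The tissue mix, at 7.26, 7.21, 7.46 and 7.17, fell within the tumor range, and the tumors differed from it by 0.32 (95% interval -0.47 to 1.11). In eMCs 48 h after *SS18-SSX1*, *Foxa1* differed by -0.46 from the empty vector, without overlap (SE 0.087, adjusted p = 0.00051), a 1.38-fold change. Both groups were dim. Intensities were 15.5 to 18.2 with *SS18-SSX1* (array medians 23.9 to 24.1) and 22.1 to 27.8 with the empty vector (array medians 24.3 to 24.5).

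*Foxa1* is a factor of epithelia. Epithelial markers summed to 759 to 1956 in SS tumors, 519 to 532 in eMCs with *SS18-SSX1* and 649 to 690 in eMCs with the empty vector, and 5 of 9 were called higher and 1 lower in SS tumors against either eMC group. All 6 skeletal muscle markers were called higher in SS tumors against either eMC group, where 12.8% of genes were higher and 9.94% lower against *SS18-SSX1* and 14.5% and 8.70% against the empty vector. Among all genes, those most like *Foxa1* over the 53 arrays were *Bcl11a* (Pearson r = 0.953), *Myh4* (0.948) and *Myh1* (0.945), of which *Myh4* and *Myh1* are myosin heavy chains of skeletal muscle. In the tissue mix, where *Foxa1* was within the tumor range, epithelial markers summed to 9877 to 10150 and 8 of 9 were called lower in SS tumors than in the mix. Of 6 muscle markers 0 were called in that comparison. Between the eMC groups, muscle markers summed to 1850 to 1937 with *SS18-SSX1* and 452.5 to 483.1 with the empty vector. Among SS tumors *Foxa1* against epithelial markers had r = 0.251 (rho = 0.210, adjusted p = 0.75 for r over 96 relations, permutation test), and among SS214 tumors r = 0.774 (rho = 0.670, adjusted p = 0.093 for r). Against skeletal muscle markers *Foxa1* had r = 0.53 among SS tumors (rho = 0.434, adjusted p = 0.493 for r, same test). Among SS214 tumors that r was 0.448 (rho = 0.505, adjusted p = 0.555 for r). Macrophage markers had r = 0.627 with *Foxa1* among SS tumors (rho = 0.678, adjusted p = 0.3 for r, same test) and 0.3 among SS214 tumors. Lung markers, dim in SS tumors (sums of 82.7 to 178), had r = -0.34 there (rho = -0.776, adjusted p = 0.215 for rho, same test). Among SS214 tumors r with lung markers was 0.164. The part of muscle, epithelium, macrophages or lung in the *Foxa1* values was not tested.

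*Foxc1*, a regulator of somite, eye and vessel development, separated tumors from mixed tissue more than any other member. It measured 9.34 to 11.25 in SS tumors (median 10.61), against 4.45, 4.33, 4.40 and 4.32 in the tissue mix. No tumor came near the mix, and the difference was 6.13 (SE 0.23, 69.9-fold, adjusted p = 1.0e-13). The dimmer probe set of *Foxc1* gave 6.40 (SE 0.21, 84.2-fold, adjusted p = 1.0e-14).

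The cells from which tumors were made already expressed *Foxc1*. It was 9.55, 9.49, 9.44 and 9.45 in eMCs with *SS18-SSX1*, against 10.30, 10.32, 10.33 and 10.22 with the empty vector, a difference of -0.81 without overlap (SE 0.032, adjusted p = 1.5e-11) that stayed under 2-fold at 1.75-fold. The dimmer probe set differed by -0.85 (SE 0.045, adjusted p = 5.0e-10). SS tumors were higher than eMCs with *SS18-SSX1* by 1.02 on the brighter probe set (SE 0.23, adjusted p = 0.0010) and by 2.11 on the dimmer one (SE 0.21, adjusted p = 9.8e-08). Against the empty vector the probe sets parted, with 0.21 on the brighter (95% interval -0.28 to 0.70, adjusted p = 0.43) and 1.26 on the dimmer (95% interval 0.83 to 1.69, adjusted p = 3.9e-05). The brighter probe set overlapped between SS tumors and both eMC groups, whereas the dimmer one did not overlap with either. Over 53 arrays the probe sets of *Foxc1* followed each other at r = 0.980.

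*Foxc2*, which is needed for lymphatic vessels, was at its lowest in the tissue mix, at 3.72, 3.97, 3.70 and 3.64. SS tumors spread from 5.28 to 8.29 around a median of 6.35, all above the mix, with a difference of 2.88 (SE 0.52, 7.38-fold, adjusted p = 0.00014). Their SD of 1.13 was the widest of any member in any group. In eMCs *Foxc2* measured 7.45, 7.55, 7.51 and 7.56 with *SS18-SSX1*, against 8.21, 8.28, 8.18 and 8.16 with the empty vector. The eMC groups did not overlap, and the difference of -0.69 (SE 0.044, adjusted p = 4.3e-09) was 1.62-fold.

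SS tumors fell below eMCs with the empty vector in *Foxc2* at a log2 change of -1.57 (SE 0.52, 2.97-fold, adjusted p = 0.014), although the groups overlapped. With the *Gapdh* ratio as a covariate the difference was -0.64 and no longer passed (adjusted p = 0.52). The ratio did not overlap between these groups (0.326 to 1.432 in SS tumors, -0.015 to 0.064 with the empty vector), so this fit cannot separate it from group. Against eMCs with *SS18-SSX1* it was -0.88 (95% interval -1.98 to 0.22, adjusted p = 0.16). Endothelial markers, a cell type that uses both FoxC genes, summed to 278 to 868 in SS tumors, 1038 to 1082 in eMCs with *SS18-SSX1*, 207 to 222 in eMCs with the empty vector and 2712 to 2914 in the mix, and their part was not tested.

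*Foxf2* was uniform within the tumors (SD 0.24 in SS) and far above the cells of origin. SS tumors ranged from 7.64 to 8.51 (median 8.10), against 4.02, 4.20, 3.95 and 3.98 in eMCs with *SS18-SSX1*, 4.27, 4.24, 4.07 and 4.04 in eMCs with the empty vector and 3.92, 4.33, 4.48 and 4.19 in the tissue mix. Every tumor lay more than 3 units above every array of these 3 groups. The increases were 4.02 (SE 0.13, 16.2-fold, adjusted p = 2.5e-14), 3.90 (SE 0.13, 15.0-fold, adjusted p = 3.1e-14) and 3.83 (SE 0.14, 14.2-fold, adjusted p = 3.9e-14) in the same order of groups. Between the eMC groups *Foxf2* differed by -0.12 (95% interval -0.28 to 0.05, adjusted p = 0.24).

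*Foxf1*, its paralog, lay at 7.76 to 9.59 in SS tumors (median 8.69), against 6.09, 6.16, 6.24 and 6.09 in eMCs with *SS18-SSX1* and 6.22, 6.50, 6.62 and 6.71 in eMCs with the empty vector. All tumors were above all eMC arrays, by 2.57 (SE 0.28, 5.92-fold, adjusted p = 3.5e-07) against *SS18-SSX1* and by 2.20 (SE 0.28, 4.59-fold, adjusted p = 2.6e-06) against the empty vector. Unlike *Foxf2*, it was as bright in the tissue mix, at 8.67, 8.60, 8.61 and 8.64, and the tumors differed from the mix by 0.08 (95% interval -0.50 to 0.67). Smooth muscle markers, which belong to cells that surround gut and airway, summed to 519 to 2403 in SS tumors and 9522 to 9936 in the mix. Between the eMC groups *Foxf1* differed by -0.37 with *SS18-SSX1* (SE 0.092, adjusted p = 0.0046), with overlap.

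The dimmer probe set of *Foxf1* told less. It ranged from 4.42 to 6.05 in SS tumors and from 5.83 to 5.91 in the mix, and differed by -0.77 in SS tumors (SE 0.24, 1.70-fold, adjusted p = 0.012). Its differences from eMCs were 0.28 (95% interval -0.22 to 0.79) against *SS18-SSX1* and 0.34 (95% interval -0.17 to 0.84) against the empty vector. With the *Gapdh* ratio as a covariate the comparison with the empty vector gave 1.06 and was called (adjusted p = 0.0092). That ratio did not overlap between these groups, so this fit cannot separate it from group. The probe sets of *Foxf1* correlated at r = 0.706 over the 53 arrays, less than those of *Foxc1* or *Foxq1* (0.915).

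*Foxq1* was at the floor on all 8 eMC arrays by its brighter probe set, whose suffix x marks probes that may match other transcripts. SS tumors ranged from 6.18 to 7.77 (median 6.90), at least 10.8-fold above either eMC group, a bound set by the floor (adjusted p = 2.5e-09 for *SS18-SSX1* and 2.1e-09 for the empty vector). In the tissue mix it measured 4.54, 4.98, 5.05 and 4.73, and the tumors were higher by 2.15 (SE 0.26, 4.44-fold, adjusted p = 1.3e-06) without overlap. The dimmer probe set, which was off the floor in all groups, was higher in SS tumors by 1.28 (SE 0.17, adjusted p = 4.0e-06) against eMCs with *SS18-SSX1* and by 1.29 (SE 0.17, adjusted p = 4.2e-06) against the empty vector. Against the mix it gave 0.97 (SE 0.17, 1.96-fold, adjusted p = 7.7e-05), just under the limit of 2-fold.

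**Figure D3:**
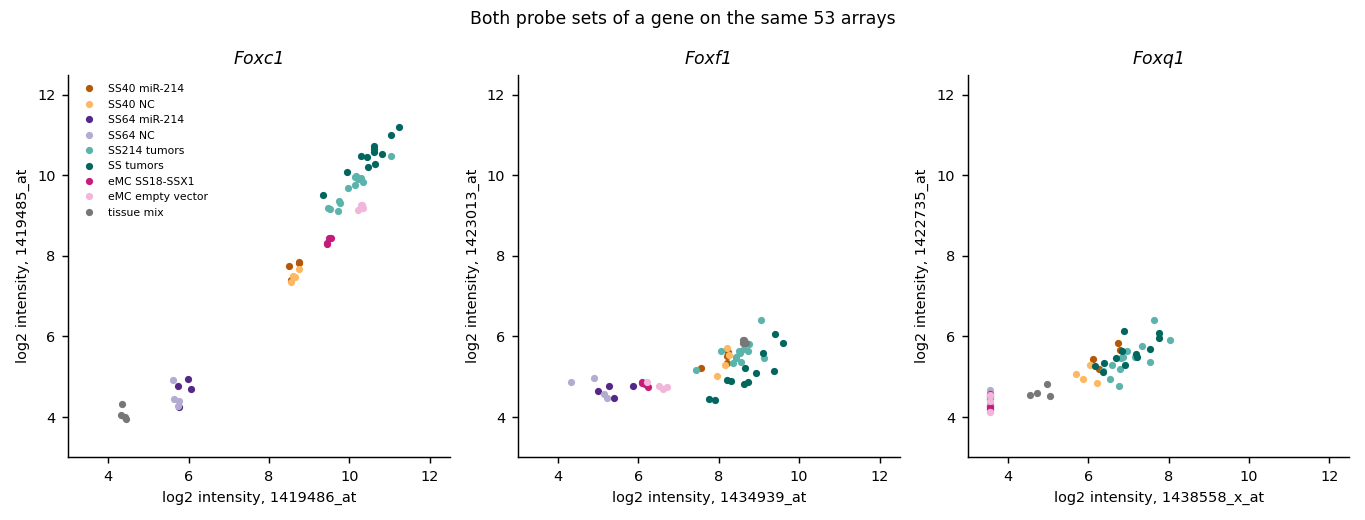
Log2 intensity of the dimmer probe set (vertical axis) against the brighter probe set (horizontal axis) of *Foxc1*, *Foxf1* and *Foxq1*, 1 point for each of 53 arrays, colored by group. The pair of *Foxc1* followed each other at r = 0.980, those of *Foxq1* at 0.915 and those of *Foxf1* at 0.706, and the left column of points for *Foxq1* is the floor of 3.55 on the brighter probe set.

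Other forkhead genes were read from a list of 35. Of 27 tested, 1 was called higher and 0 lower between eMCs with *SS18-SSX1* and eMCs with the empty vector, and that gene was *Foxd3*, a neural crest factor, at 1.98 (SE 0.11, adjusted p = 1.3e-09). In SS tumors against the tissue mix, 3 were higher and 2 lower of 26, with *Foxd2* at 2.10 and *Foxp1* at 1.85 among the higher and *Foxl2*, an ovarian factor, at -1.40 among the lower. Against eMCs with the empty vector 4 were higher and 1 lower of 27, led by *Foxp1* at 1.98 and *Foxn2* at -1.77. Against eMCs with *SS18-SSX1* 4 were higher and 2 lower of 27, with *Foxp1* at 2.12, *Foxd3* at -1.51 and *Foxn2* at -2.03. Of all genes, 11.3% were higher and 13.8% lower in SS tumors against the mix. The shares were 14.5% and 8.70% against the empty vector, 12.8% and 9.94% against *SS18-SSX1*, and 2.73% and 0.920% between the eMC groups. The counts of other forkhead genes higher in SS tumors were near these shares. Median log2 changes over the other forkhead genes were -0.09 between the eMC groups, 0.07 against the mix and -0.09 against the empty vector, beside -0.69, 1.23 and 1.20 over the members and 0.00, 0.07 and -0.03 over all genes tested.

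Hedgehog signalling, known upstream of FoxF genes, was read from 14 pathway genes. In SS tumors against the mix, 9 of 12 tested were called higher and 0 lower (median 2.26), with the antagonist *Hhip* at 4.35, the effector *Gli1* at 4.20 and the co-receptors *Cdon* and *Boc* at 3.72 and 3.11. Against eMCs with the empty vector 6 of 12 were higher and 0 lower, with *Gli1* at 4.50 (SE 0.17, adjusted p = 2.1e-13) and the receptor *Ptch1* at 2.22 (SE 0.13, adjusted p = 6.5e-11). Against eMCs with *SS18-SSX1* 5 of 12 were higher and 1 lower, with *Gli1* at 4.84, *Hhip* at 3.09 and *Dhh* at -1.08. Between the eMC groups *Hhip* was called lower with *SS18-SSX1* at -1.12 (SE 0.054, adjusted p = 1.9e-10), 1 of 12, and 0 were higher. The background for genes by their brightest probe set was 11.3% higher and 13.8% lower against the mix, 14.5% and 8.70% against the empty vector, and 2.73% and 0.920% between the eMC groups.

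SS214 and SS tumors were compared to ask whether *miR-214* altered the tumors. Both probe sets of *Foxc1* had an adjusted p under 0.05. The brighter one ranged from 9.48 to 11.04 in SS214 tumors (median 10.14), against 9.34 to 11.25 in SS tumors (median 10.61), and the ranges overlapped. The difference was -0.46 (SE 0.17, 1.38-fold, adjusted p = 0.036) on the brighter and -0.81 (SE 0.16, 1.75-fold, adjusted p = 0.00034) on the dimmer probe set. The *Gapdh* ratio moved with these groups, at 0.326 to 1.432 in SS and -0.045 to 0.483 in SS214 tumors. RNA quality and *miR-214* can therefore hardly be told apart here. *Foxa3* was higher in SS214 tumors by 0.20 (SE 0.078, 1.15-fold, adjusted p = 0.049). It was dim in both groups, at mean intensities of 19.5 in SS214 (array medians 23.8 to 26.9) and 17.1 in SS tumors (array medians 22.6 to 25.9).

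No member met both limits. By limma, 0 of 11 probe sets were called, 4 had an adjusted p under 0.05 and 5 an unadjusted p under 0.05, and 39.4% of all probe sets had an adjusted p under 0.05. The methods' t-test with Benjamini-Hochberg adjustment also called 0. The dimmer probe set of *Foxf1*, also among these 4, was higher in SS214 tumors by 0.49 (SE 0.16, adjusted p = 0.017), but by -0.15 with the *Gapdh* ratio as a covariate (adjusted p = 0.76), and the brighter probe set gave -0.21 (95% interval -0.61 to 0.20). For *Foxf2* the difference was -0.10 (95% interval -0.31 to 0.12), for *Foxq1* 0.05 (-0.35 to 0.45), for *Foxc2* -0.20 (-0.90 to 0.49), for *Foxa1* -0.57 (-1.13 to -0.02, adjusted p = 0.094) and for *Foxa2* 0.16 (-0.04 to 0.37).

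Lung markers moved with SS214 tumors, at summed intensities of 93.2 to 4899 in SS214 and 82.7 to 178 in SS tumors, and 7 of 13 SS214 tumors exceeded every SS tumor in their mean. Without these 7 tumors, and with the lung marker mean as a covariate, 0 member probe sets were called. The main fit had called 0 as well, so these counts cannot show whether lung content mattered. Within SS214 tumors lung markers had r = -0.547 with *Foxc2* (rho = -0.731, adjusted p = 0.215 for rho, permutation test over 96 relations). For the other members r lay between -0.372 (*Foxc1*) and 0.243 (*Foxq1*). The part of lung tissue in member values was not tested. *Foxp1* was called lower in SS214 tumors at -1.09 (SE 0.12, adjusted p = 5.5e-07), 1 of 27 other forkhead genes, and 0 of 13 Hedgehog pathway genes were called, where 0.946% of genes were higher and 1.06% lower.

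SS40 and SS64 cells differed from each other in the FoxC, FoxF and *Foxq1* genes. *Foxc1* measured 8.73, 8.66, 8.58 and 8.55 in SS40 NC cells, against 5.76, 5.62, 5.62 and 5.73 in SS64 NC cells, 7.71-fold higher in SS40 (log2 change 2.95, SE 0.074, adjusted p = 1.3e-10). *Foxf1* measured 8.16, 7.96, 8.21 and 8.27 in SS40 NC cells, against 4.32, 4.89, 5.21 and 5.14 in SS64 NC cells, 9.57-fold higher (log2 change 3.26, SE 0.17, adjusted p = 5.6e-08). In neither gene did any arrays of the lines overlap.

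*Foxf2* was 5.86, 5.89, 5.87 and 5.87 in SS40 NC cells, against 3.55, 3.78, 3.55 and 3.73 in SS64 NC cells, where 2 of 4 arrays were at the floor. The difference was 2.22 (SE 0.083, adjusted p = 2.9e-09). *Foxq1* was 6.04, 6.21, 5.70 and 5.88 in SS40 NC cells and at the floor on all SS64 arrays, so that it was at least 5.31-fold higher in SS40 (adjusted p = 1.4e-08). *Foxc2* was 7.95, 8.01, 8.04 and 8.07 in SS40 NC cells and 5.88, 5.97, 6.30 and 6.25 in SS64 NC cells (log2 change 1.92, SE 0.10, 3.77-fold, adjusted p = 5.5e-08). Both genes of the chromosome 8 pair and all 3 genes of the chromosome 13 cluster were higher in SS40.

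No FoxA gene was called between the lines. *Foxa2* was higher in SS40 NC cells by 0.84 (SE 0.095, 1.78-fold, adjusted p = 2.9e-05) without overlap, *Foxa1* differed by -0.38 (SE 0.12, adjusted p = 0.032), and *Foxa3* differed by 0.11 (95% interval -0.10 to 0.33). The dimmer probe sets gave 3.00 for *Foxc1* (SE 0.14, adjusted p = 1.6e-08), 0.67 for *Foxf1* (SE 0.16, adjusted p = 0.0067) and 0.54 for *Foxq1* (SE 0.11, adjusted p = 0.0027). Among 27 other forkhead genes only *Foxd3* was called, lower in SS40 NC at -3.67 (SE 0.16, adjusted p = 1.1e-08), whereas *Hhip* (3.45), *Gli2* (2.97) and *Cdon* (2.01) were higher in SS40 and the ligand *Dhh* was lower (-2.20) among 12 Hedgehog genes. Of all genes 6.02% were higher and 6.34% lower in SS40 NC. Smooth muscle markers also separated the lines, at 2270 to 2396 in SS40 NC and 1097 to 1170 in SS64 NC cells (2 of 5 called higher and 1 lower). Mesenchyme markers had 3 of 8 called higher and 1 lower, with sums of 4140 to 4422 in SS40 NC and 3997 to 4100 in SS64 NC cells. Sums were 281 to 307 in SS40 NC and 131 to 151 in SS64 NC cells for macrophage markers (1 of 6 higher), and 294 to 330 in SS40 NC and 194 to 224 in SS64 NC cells for epithelial markers (1 of 8 tested higher). The part of these markers in the FoxC, FoxF and *Foxq1* differences was not tested.

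Both NC lines were also set against SS tumors. *Foxa1* was lower in both, at -3.51 in SS40 NC (SE 0.38, 11.4-fold, adjusted p = 2.3e-07) and -3.13 in SS64 NC cells (SE 0.38, 8.77-fold, adjusted p = 9.6e-07). Its values of 3.90, 4.19, 4.35 and 3.90 in SS40 NC and 4.25, 4.43, 4.46 and 4.70 in SS64 NC cells were below every tumor. All 6 skeletal muscle markers and 6 of 9 epithelial markers were also called lower in each line (1 of 9 epithelial markers was higher in SS40), where 16.3% of genes were lower and 11.3% higher in SS40 NC and 15.5% and 10.4% in SS64 NC, and their part was not tested. *Foxc1* was lower, at -1.87 in SS40 NC (SE 0.23, adjusted p = 1.4e-06) and -4.82 in SS64 NC cells (SE 0.23, 28.2-fold, adjusted p = 4.4e-12). *Foxf2* was lower, at -2.19 in SS40 NC (SE 0.13, 4.55-fold, adjusted p = 5.1e-11) and -4.41 in SS64 NC cells (SE 0.13, 21.2-fold, adjusted p = 4.6e-15).

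*Foxf1* separated SS64 from tumors. It was lower in SS64 NC cells than in SS tumors, at -3.82 (SE 0.29, 14.1-fold, adjusted p = 2.9e-09), whereas in SS40 NC cells the difference was -0.56 (95% interval -1.15 to 0.03, adjusted p = 0.084). *Foxq1* was at least 10.8-fold lower in SS64 NC cells (adjusted p = 1.7e-09) and 2.03-fold lower in SS40 NC cells (log2 change -1.02, SE 0.26, adjusted p = 0.0022), a call close to the 2-fold limit that was lost without SS40 NC array 3 (-0.93) or 4 (-0.99). *Foxc2* was higher in SS40 NC cells than in SS tumors by 1.38 (SE 0.52, 2.60-fold, adjusted p = 0.027) with overlap, a call lost when any SS40 NC array was left out (adjusted p = 0.051 to 0.059). In SS64 NC cells it differed by -0.54 (95% interval -1.64 to 0.56). *Foxa2* was higher in SS40 NC cells by 1.13 (SE 0.14, 2.19-fold, adjusted p = 1.6e-06), at 5.52, 5.63, 5.49 and 5.76, above every tumor.

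Transfection of *miR-214* was compared with NC within each line. *Foxc2* was the 1 member with an adjusted p under 0.05. It measured 8.60, 8.49, 8.59 and 8.52 in SS40 cells with *miR-214*, against 7.95, 8.01, 8.04 and 8.07 in SS40 NC cells, and the groups did not overlap. The difference of 0.53 (SE 0.083, 95% interval 0.35 to 0.72, adjusted p = 0.021) was 1.45-fold, and 0.694% of all probe sets had an adjusted p under 0.05. This *Foxc2* p did not hold under several other settings. In SS40 the adjusted p was 0.116 with the replicate number as a block, although SS40 numbers were not taken as pairs. It was 0.824 in a joint fit of all arrays, which pools the spread of tumors and lines (*Foxc2* SD 1.125 in SS tumors and 0.0546 in SS40 NC cells). With 1 array left out it lay between 0.00516 and 0.102, above 0.05 in 7 of 8 cases and under it only without *miR-214* array 4. The log2 difference stayed between 0.51 and 0.55 throughout these fits. Smooth muscle markers moved with the same SS40 arrays, at summed intensities of 1235 to 1524 with *miR-214* and 2270 to 2396 with NC, and their part was not tested. In SS64 cells *Foxc2* measured 5.67, 5.58, 5.86 and 6.13 with *miR-214*, against 5.88, 5.97, 6.30 and 6.25 with NC, with overlap and a difference of -0.29 (95% interval -0.59 to 0.0027, adjusted p = 0.25). Same-numbered SS64 arrays were taken as pairs, although the labels give replicate numbers and no pairing. *Foxc2* was lower with *miR-214* in 4 of 4 such pairs, by differences of -0.21, -0.40, -0.44 and -0.13. Its adjusted p was 0.0515 in limma with the pair as a block. The responses differed between the lines by 0.83 (SE 0.16, 95% interval 0.48 to 1.17, adjusted p = 0.025), in a test where 0.605% of all probe sets had an adjusted p under 0.05. For this *Foxc2* difference the adjusted p was 1 in a joint fit of all arrays and 0.00775 to 0.0687 with 1 array left out.

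No other member had an adjusted p under 0.05 in either line without the block. *Foxq1* in SS40 measured 6.75, 6.78, 6.28 and 6.11 with *miR-214*, against 6.04, 6.21, 5.70 and 5.88 with NC, a difference of 0.52 (95% interval 0.12 to 0.92, adjusted p = 0.35), and its dimmer probe set gave 0.49 (95% interval 0.15 to 0.84, adjusted p = 0.29). *Foxf1* in SS64 measured 5.26, 5.00, 5.38 and 5.87 with *miR-214*, against 4.32, 4.89, 5.21 and 5.14 with NC, a difference of 0.49 (95% interval 0.03 to 0.95, adjusted p = 0.22). With the pair as a block this *Foxf1* difference, positive in 4 of 4 pairs (0.94, 0.11, 0.17 and 0.73), had an adjusted p of 0.037 in limma at the same 1.40-fold, and 14.0% of all probe sets had an adjusted p under 0.05 in that fit. For the leading probe sets of *Foxa1*, *Foxa2*, *Foxa3*, *Foxc1*, *Foxf1* and *Foxf2* in SS40 the differences lay between -0.18 and 0.20, and for those of *Foxa1*, *Foxa2*, *Foxa3*, *Foxc1* and *Foxf2* in SS64 between 0.02 and 0.20. By limma 3 of 11 member probe sets in SS40 and 1 of 10 in SS64 had an unadjusted p under 0.05. The methods' t-test with Benjamini-Hochberg adjustment and the fold limit called 0 in either line.

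Members also varied among tumors of a group. In the 12 SS tumors *Foxc2* and *Foxf1*, neighbours on chromosome 8, followed each other closely (Pearson r = 0.929, adjusted p = 0.0011; Spearman rho = 0.923, adjusted p = 0.0022; permutation test over 56 pairs of members in both tumor groups). Without the 2 tumors farthest from the median of *Foxc2* the correlation was 0.910. SS tumors 24, 29 and 30, with *Foxc2* at 8.08, 8.19 and 8.29 and *Foxf1* at 9.59, 9.40 and 9.37, lay at the top of both genes by their brighter or only probe set. On the dimmer *Foxf1* probe set tumor 30 was at 5.14, below tumors 22 and 27 at 5.21 and 5.60. Tumors 18 and 23 lay low in both genes, with *Foxc2* at 5.40 and 5.28 and *Foxf1* at 7.76 and 8.20 on the brighter probe set. In the 13 SS214 tumors the same pair gave r = 0.385 and rho = 0.615 (adjusted p = 0.44 for r and 0.24 for rho), and r was 0.0969 without the 2 tumors farthest from the median of *Foxc2*. Whether the groups differ was not tested. *Foxq1*, on chromosome 13, also rose with these genes in SS tumors, at r = 0.701 with *Foxc2* and 0.641 with *Foxf1*. Neither passed (adjusted p = 0.143 and 0.184 for r, same permutation test), and in SS214 tumors r was -0.0904 and 0.0182.

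Muscle markers ran against *Foxc2* in SS tumors, with r = -0.807 (rho = -0.601, adjusted p = 0.093 for r over 96 relations of members with markers and the *Gapdh* ratio, permutation test), against *Foxq1* with r = -0.783 and against *Foxf1* with r = -0.695. Macrophage markers ran against the same genes in SS tumors, with r = -0.748 for *Foxc2* (rho = -0.748, adjusted p = 0.13 for r, permutation test), -0.717 for *Foxq1* and -0.545 for *Foxf1*. The SS214 tumors did not repeat this pattern. There r was -0.371 for *Foxc2*, 0.436 for *Foxq1* and -0.52 for *Foxf1* against muscle markers. Against macrophage markers it was 0.154, 0.0787 and 0.00382 in the same order of genes. A difference between the tumor groups in these relations was not tested. None of the 96 relations passed an adjusted p of 0.05 by r or rho, and the part of muscle or macrophage content in the correlation of *Foxc2* with *Foxf1* was not tested. *Foxa1* ran opposite to *Foxc2* in SS tumors at r = -0.772 (rho = -0.629, adjusted p = 0.075 for r). Among SS214 tumors *Foxa1* and *Foxc2* had r = -0.0737 (rho = 0.0385, adjusted p = 0.857 for r, permutation test). In SS214 tumors *Foxc1* and *Foxf2*, neighbours on chromosome 13, had r = 0.795 (adjusted p = 0.012) and rho = 0.764 (adjusted p = 0.095), and r stayed at 0.795 without the 2 tumors farthest from the median of *Foxc1*. In SS tumors that pair had r = 0.232 (rho = 0.259), and whether the groups differ was not tested. No batch is named in the labels, so none could be used to split the tumors.

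**Figure D4:**
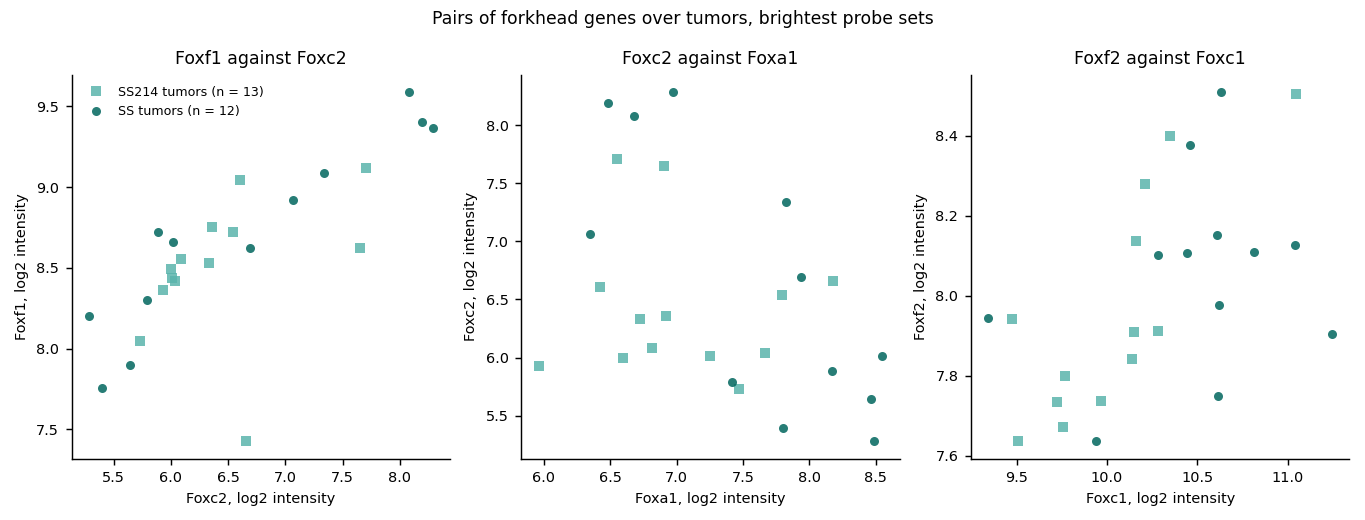
Log2 intensity of *Foxf1* against *Foxc2*, of *Foxc2* against *Foxa1* and of *Foxf2* against *Foxc1*, 1 point per tumor, squares for 13 SS214 and circles for 12 SS tumors. In SS tumors *Foxf1* rose with *Foxc2* at r = 0.929, and in SS214 tumors *Foxf2* rose with *Foxc1* at r = 0.795.

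Likeness to other genes was read from Pearson's r over all 53 arrays among 16371 genes, a description in which arrays of a group are not independent points. The 3 genes most like *Foxf2* were the developmental factors *Zic2* (0.984) and *Hoxb3* (0.971) and the acetylcholine receptor subunit *Chrnb1* (0.969). *Foxq1* was most like the homeobox gene *Irx1* (0.954), *Tmem35a* (0.949) and *Foxf2* itself (0.949), the 1 case in which a member stood among the 3 genes nearest to another. *Foxc1* was nearest to the mesenchymal factor *Twist1* (0.962), the cyclin *Ccnd2* (0.942) and *Hoxc8* (0.935). *Foxf1* was nearest to *Mettl26* (0.941), *Fam217b* (0.932) and *Tmem178* (0.931).

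*Foxa3* was nearest to *Cmtm5* (0.973), *Slc16a4* (0.962) and *Galnt3* (0.959), and *Foxa2* to *Ica1* (0.906), *Cth* (0.893) and *Smim5* (0.885). *Foxc2* had the loosest neighbours, *Zfp647* (0.833), the ribosomal protein gene *Rpl6* (0.832) and *Tbl2* (0.818). Among members themselves, *Foxa2* and *Foxa3* had r = 0.870, *Foxc1* and *Foxf2* 0.716, *Foxf1* and *Foxf2* 0.793, and *Foxf1* and *Foxc2* only 0.018, although the last pair had moved together among SS tumors.

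The order of group means differed between members. For *Foxf2* it ran SS, SS214, SS40 *miR-214*, SS40 NC, tissue mix, eMC empty vector, eMC *SS18-SSX1*, SS64 *miR-214* and SS64 NC from high to low, and only SS214 from SS40 *miR-214* and SS40 NC from the mix did not overlap with the next. For *Foxa3* it ran eMC empty vector, eMC *SS18-SSX1*, tissue mix and then both lines and both tumor groups, whose ranges overlapped at each step. For *Foxc2* SS40 *miR-214* came first and the tissue mix last, and from eMC *SS18-SSX1* down through SS, SS214 and SS64 NC to SS64 *miR-214* each group overlapped the next. For *Foxc1* SS, eMC empty vector, SS214 and eMC *SS18-SSX1* came first with overlaps at each step, then without overlap SS40, SS64 and the mix.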

How the data were processed

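Total RNA was hybridised to GeneChip mouse arrays. The authors deposited 1 linear intensity per probe set and array; MAS5 is named in the submitters' notes and GeneSpring in the methods, so how probes were summarized and scaled is not settled. Values ran from 5.36 to 11034. All sample columns were used (0 left out). Of 45141 probe sets, 104 controls were removed; 28898 had 1 gene symbol, 551 several and 15588 none. Intensities were floored at the median over arrays of the 20th percentile and taken to log2, and probe sets above the floor on 4 or more arrays of a comparison entered limma 3.58.1 (lmFit, eBayes with trend; R 4.3.3), using only the groups compared, with Benjamini-Hochberg adjustment over all probe sets. Scripts were tested on simulated data. The number of arrays limits the precision.

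Every probe set of the 9 genes was described. Of other forkhead and Hedgehog genes, at most 4 called ones per comparison were named, and for each member the 3 genes with the highest correlation. Members and lists were chosen with earlier results of these data known. Same-numbered SS64 arrays deviated together from their group means (correlations of 0.346, 0.319, 0.221 and 0.283), so that these numbers were taken as pairs. The NC arrays that correlated best with *miR-214* arrays 1, 2, 3 and 4 were numbers 2, 2, 4 and 4, so this pairing is uncertain. Numbers of SS40 (-0.282 to 0.464) and of the eMCs (0.0113 to 0.153) were not taken as pairs. The alternatives tried were quantile normalization, another floor and none, no filter, a joint fit of all arrays, the methods' t-test, no fold limit, a replicate block, leaving out each array of groups of 4, and covariates for lung markers and the *Gapdh* ratio. Promoters and miRNAs came from RefSeq (GRCm38.p6); *Foxc2*, *Foxf1* and *Foxq1* had no matched promoter.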

Additional observations from a re-analysis of the deposited data

Results flagged for a closer look

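Among 73 sets of 4 arrays with a spread, tested for a value far from the other 3, 3 stood out, where chance gives about 1 in 20. *Foxa1* was 4.93 on array 2 of SS64 with *miR-214*, against 4.43 to 4.46 on the others, and 4.80 on array 1 of eMCs with the empty vector, against 4.47 to 4.49. *Foxf1* was 7.55 on array 4 of SS40 with *miR-214*, against 8.20 to 8.23 on the others. The *miR-214* response of *Foxc2* differed between lines by 0.826 on the log2 scale (SS40 minus SS64), through an interaction term in limma with an adjusted p of 0.025. For *Foxc2* that adjusted p was 1 in a joint fit of all arrays and 0.00775 to 0.0687 with 1 array left out.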

How the results depend on the processing

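Without the fold limit, the count over all members was 7 in place of 2 between the eMC groups, 10 in place of 6 between SS40 NC and SS64 NC, 4 in place of 0 between SS214 and SS tumors, 1 in place of 0 for *miR-214* in SS40 and 1 in place of 0 for the difference between lines. Of single probe sets, the dimmer one of *Foxf1* reversed between SS214 and SS tumors with the *Gapdh* ratio as a covariate, at -0.15. The cause was not tested. With quantile normalization *Foxa2* gave -1.03 between SS tumors and eMCs with *SS18-SSX1* and became called, and *Foxq1* was lost between SS40 NC and SS tumors (-0.73, brighter probe set) and between SS64 NC and SS tumors (-0.95, dimmer probe set). *Foxa2* between SS tumors and eMCs with *SS18-SSX1* also passed without eMC *SS18-SSX1* array 1 (-1.01) or 3 (-1.06), and the dimmer *Foxq1* probe set passed between SS tumors and the mix without mix array 2 (1.03) or with the *Gapdh* ratio (1.15). That ratio did not overlap between SS tumors and the mix, so the last fit cannot separate it from group. With 1 array left out, 719 member results kept their direction and side of the threshold, 6 lost a call and 3 gained one. With a replicate block, all 42 member results kept theirs under both limits, while *Foxf1* (brighter probe set) for *miR-214* in SS64 passed by adjusted p alone (0.037). The block left the *Foxc2* difference for *miR-214* in SS40 at 0.53 but moved its adjusted p to 0.116, and why was not tested. In a joint fit of all arrays, which pools the spread of tumors and lines, that p was 0.824. Values near the floor understate fold changes.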
